A study of Mus musculus with 6 samples.

Results

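The genes described here are T (Brachyury), Cdx1, Cdx2, Cdx4 and Nkx1-2, transcription factor genes of the cells that lengthen the embryonic body axis. They were taken from a fixed list of names, and all 5 were found among the 19342 gene names of the deposited count table. All 5 were placed in every library under the rule used and all passed the filter on low levels, among 13821 genes analysed. In the BMP4 with FGF8 column the Cdx genes were placed only through the BMP4 5 h column. Members were taken by name, and no threshold on measured values was used to pick them, but they were chosen with earlier results of these data known.

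T is the founding member of the T-box family and is active in the primitive streak, the tailbud and the notochord. Embryos without it make little trunk and tail mesoderm. Cdx1, Cdx2 and Cdx4 are caudal-type homeobox genes of the ParaHox group, which activate Hox genes and sustain posterior growth together with WNT and FGF signals. Nkx1-2 is a homeobox gene that marks the caudal epiblast, where progenitors of spinal cord and paraxial mesoderm lie side by side. Cdx2 and Cdx1 are also known in the gut epithelium, and T in the notochord, so both tissues were looked for below.

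The series holds 6 total RNA libraries of mesoderm progenitor cells from embryonic C57BL/6 mice, with 1 library per condition. By the labels, culture was in a serum-containing medium on wild type embryonic fibroblasts treated with mitomycin C, a drug that stops division. Time in culture is 0 h for the 0 h library, where fibroblast genes summed to 73.2 CPM, against 720 CPM at 96 h. How much fibroblast RNA each library holds was not tested. Neither embryonic stage nor growth factor dose is stated in the labels. The untreated groups are 0 h and 96 h in culture, while recombinant proteins were added after 96 h to the others. The libraries labelled 101 h in culture had 5 h of BMP4, either alone or together with FGF8. Those labelled 107 h had 11 h of BMP4, either alone or together with FGF4. BMP4 is a secreted ligand that signals through SMAD proteins, and FGF8 and FGF4 are ligands that signal through receptor tyrosine kinases. No untreated library of 101 h or 107 h is among the samples, so time and treatment after 96 h cannot be told apart. With 1 library per condition, a difference in the cells sampled cannot be told apart from them either.

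Total counts ran from 179196459 in the BMP4 11 h library to 272743104 in the 96 h library. Levels are given as CPM, counts per 1000000 after TMM scaling, and 3 counts correspond to at most 0.0167 CPM. With 1 library per condition no difference has a replicate check and none carries a p-value. Brackets give 95% counting intervals, which cover counting error only. Between 65.4% and 70.9% of the small counts were even numbers, and should each fragment count as a pair of reads, these intervals are too narrow. A gene is called higher or lower where log2(CPM + 0.5) differed by at least 2-fold. The progenitor markers Tbx6, Msgn1, Dll1, Hes7 and Wnt3a summed to 197 CPM at 0 h, with none at 0 counts, and to 20.5 CPM at 96 h. Both libraries of 5 h stood close to 0 h, with r = 0.997 across genes for each, against 0.966 and 0.968 with 96 h untreated.

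Each column with a growth factor is longer than the list of names and had to be placed on it, so the rows around each gene matter. T had 18225 counts at 0 h, 2079 at 96 h, 17204 with BMP4 at 5 h, 16506 with BMP4 and FGF8, 7512 with BMP4 at 11 h and 2357 with BMP4 and FGF4. At least 65 names before T and at least 4 names after it lay at the same row shift as T in each of these 4 columns. For Nkx1-2 at least 19 names on either side did. The Cdx genes are neighbours in the sorted list, and the shift changed close before them in all 4 columns. Only 1 name before Cdx1 shared its shift with BMP4 at 5 h, and 2 did in each column of 11 h. After Cdx4, 193 names did with BMP4 at 5 h, 9 with BMP4 at 11 h and 6 with BMP4 and FGF4. In the BMP4 with FGF8 column no name on either side did, and a row beside the Cdx genes was out of order. There the score margins of the Cdx genes on the untreated columns alone were 3.89 to 4.64, under the required 5. They reached 5.26 to 5.34 through direct alignment with the BMP4 5 h column. Placement favours values between those of 0 h and 96 h, which bears on every level given for a growth factor library. An exchange of the Cdx2 and Cdx4 rows could not be seen from the counts and was tried as an alternative.

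**Figure D1:**
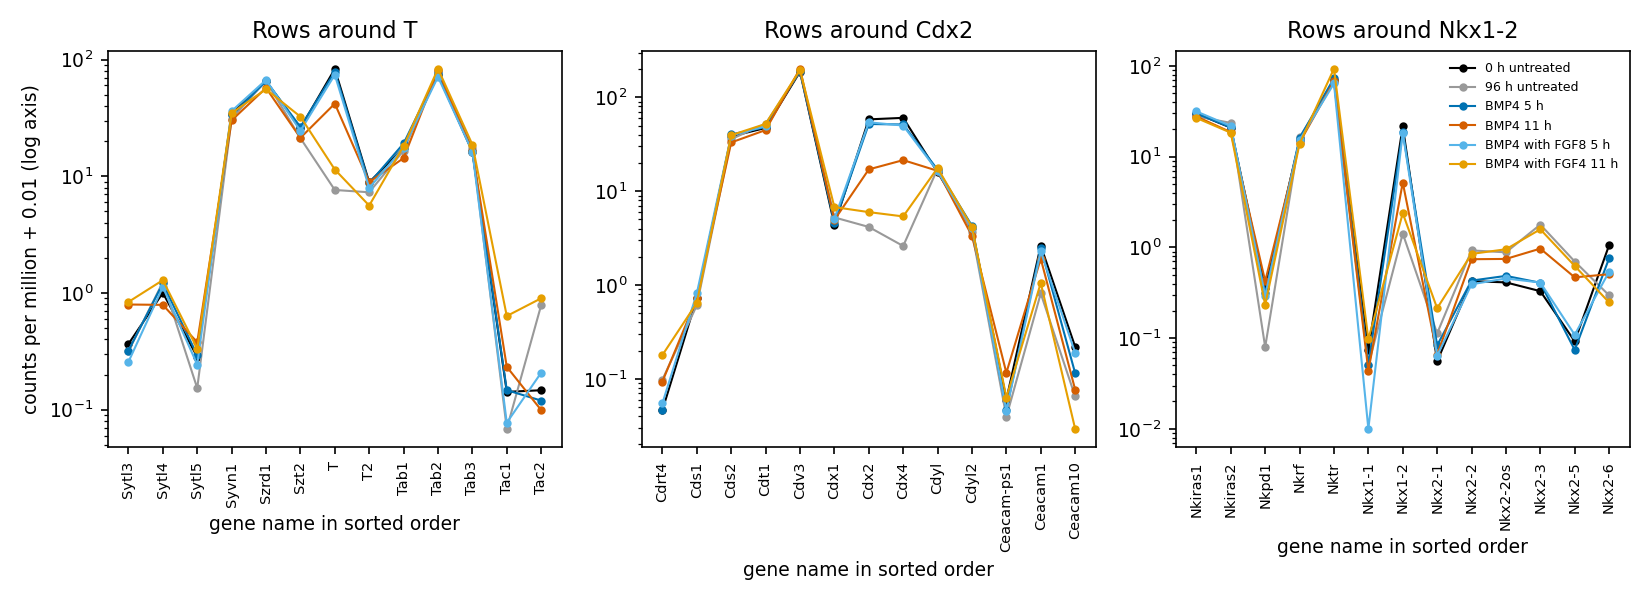
Counts per 1000000 of the column total, plus 0.01, on a log axis, for the 6 names before and the 6 names after T, Cdx2 and Nkx1-2 in sorted order, with 1 line per library. Neighbouring names above 10 CPM kept like levels in all libraries and weaker ones varied more, while T, Cdx2, Cdx4 and Nkx1-2 were low at 96 h untreated and with BMP4 and FGF4; a break in a line marks a name with no row in that column.

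Promoter sequences, from 250 bases before to 50 bases after the start site, were taken from RefSeq's table of build GRCm38.p6. They were taken for T, Cdx2, Cdx4 and Nkx1-2, the genes whose levels moved in parallel, and Cdx1 was left out of the search. The promoters of T and Cdx4 are shown because they hold matches to the short motifs searched, on both strands: CTTTGA (TCF/LEF core, in 16.02% of 32544 promoters), TTTAT (CDX core, 39.92%), AGGTGT (T-box half-site core, 13.79%), GGCGCC (BMP SMAD core, 11.94%) and CCGGAA (ETS core, 14.98%). Capitals mark matches to the first 3 of these, on either strand. Position is counted from the start site.
T, chr17:8434173-8434472, plus strand: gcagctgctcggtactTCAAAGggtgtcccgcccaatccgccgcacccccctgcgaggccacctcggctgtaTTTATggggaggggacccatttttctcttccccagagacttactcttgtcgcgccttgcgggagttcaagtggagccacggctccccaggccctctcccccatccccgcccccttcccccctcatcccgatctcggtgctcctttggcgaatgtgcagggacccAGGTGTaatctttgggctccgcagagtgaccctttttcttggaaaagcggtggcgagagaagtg
Cdx4, chrX:103321148-103321447, plus strand: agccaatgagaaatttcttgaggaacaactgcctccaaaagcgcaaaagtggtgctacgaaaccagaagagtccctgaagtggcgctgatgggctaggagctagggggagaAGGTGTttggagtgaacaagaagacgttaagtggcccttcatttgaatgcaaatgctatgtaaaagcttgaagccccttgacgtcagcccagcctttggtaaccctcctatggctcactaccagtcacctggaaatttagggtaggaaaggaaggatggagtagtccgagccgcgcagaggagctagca

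The T promoter held 1 TCF/LEF match starting at position -234, 1 CDX match at -178 and 1 T-box match at -14. Cdx4 held 1 T-box match at -139, and the windows of Cdx2 and Nkx1-2 held none of the 5 motifs. A match describes these letters and is not evidence of binding.

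In GENCODE vM21, on the GRCm38 build that mm10 also names, T lies on chromosome 17 from 8434423 to 8442496 on the plus strand. Cdx1 lies on chromosome 18 from 61018862 to 61036199 (minus strand) and Cdx2 on chromosome 5 from 147300805 to 147307270 (minus strand). Cdx4 lies on chromosome X from 103321398 to 103330592 (plus strand) and Nkx1-2 on chromosome 7 from 132594878 to 132599637 (minus strand). Transcripts of the 5 genes share no stretch of 30 bases, so reads of that length are not split between the paralogues. Nkx1-2 overlaps an antisense gene, Gm16764, and an annotated transcript of Fgfr2 on the same strand. No label states the strand setting of the counting, so reads of these overlapping genes cannot be told apart.

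T was at 83.2 CPM at 0 h, 7.65 CPM at 96 h, 77.8 CPM with BMP4 at 5 h, 73.3 CPM with BMP4 and FGF8, 44.5 CPM with BMP4 at 11 h and 10.96 CPM with BMP4 and FGF4. It was high in the 0 h library and both libraries of 5 h, intermediate with BMP4 at 11 h, and low in the other two. The counting intervals of neighbours in this order did not overlap.

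Among the Cdx genes, Cdx2 was at 58.3 CPM at 0 h, 4.16 CPM at 96 h, 51.5 CPM with BMP4 at 5 h, 53.6 CPM with BMP4 and FGF8, 18.1 CPM with BMP4 at 11 h and 5.74 CPM with BMP4 and FGF4. Cdx4 was at 60.6 CPM at 0 h, 2.60 CPM at 96 h, 50.8 CPM with BMP4 at 5 h, 49.5 CPM with BMP4 and FGF8, 22.7 CPM with BMP4 at 11 h and 5.16 CPM with BMP4 and FGF4. Both followed the same division of the libraries as T, and for Cdx4 the intervals of the libraries of 5 h overlapped (49.9 to 51.8 and 48.6 to 50.5 CPM). Cdx1 was at 4.39 CPM at 0 h, 5.26 CPM at 96 h, 4.56 CPM with BMP4 at 5 h, 5.00 CPM with BMP4 and FGF8, 5.23 CPM with BMP4 at 11 h and 6.50 CPM with BMP4 and FGF4. Its order was another one, with the lowest value at 0 h and the highest with BMP4 and FGF4. Neighbours in it overlapped within counting error, except that the interval with BMP4 and FGF4 (6.16 to 6.84 CPM) lay above the rest.

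Nkx1-2 was at 21.7 CPM at 0 h, 1.42 CPM at 96 h, 18.6 CPM with BMP4 at 5 h, 18.2 CPM with BMP4 and FGF8, 5.50 CPM with BMP4 at 11 h and 2.28 CPM with BMP4 and FGF4. It had the same high, intermediate and low libraries as T, Cdx2 and Cdx4. The values of the libraries of 5 h overlapped within counting error.

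**Figure D2:**
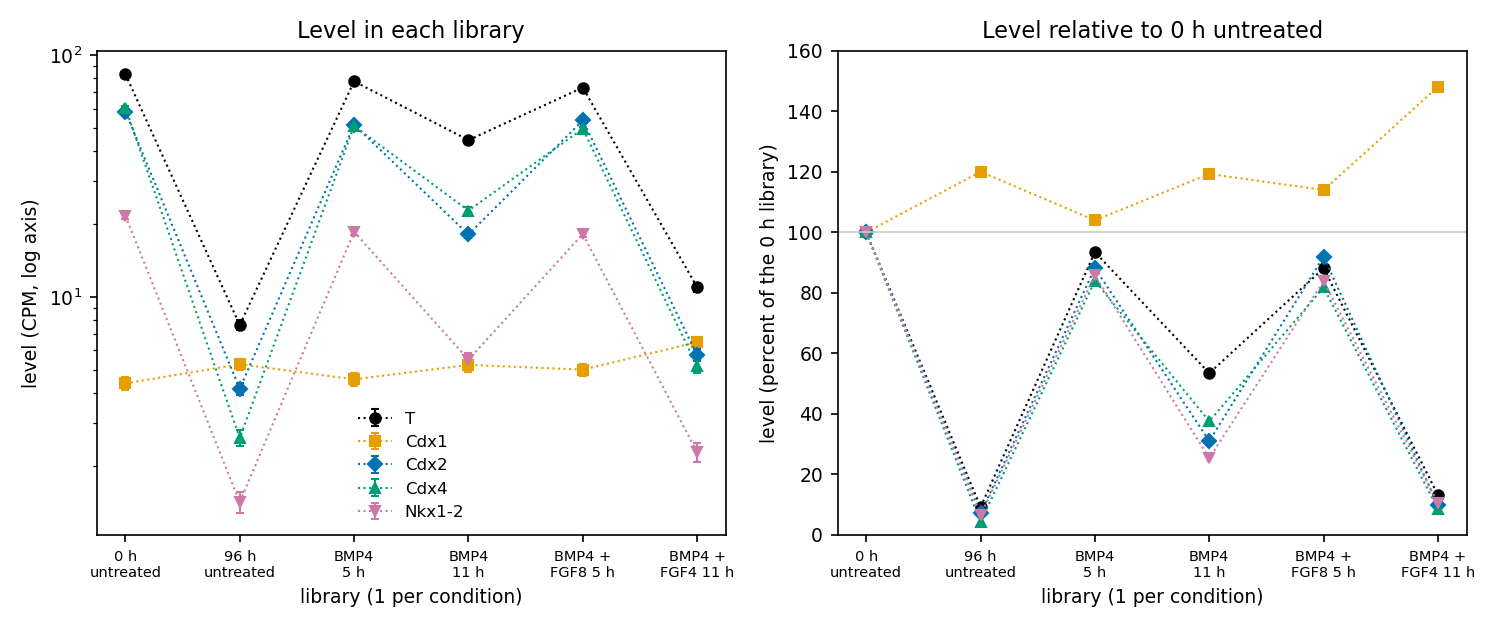
Left, CPM of the 5 genes on a log axis in each of the 6 libraries, with 95% counting intervals as bars; right, the same levels as a percent of the 0 h library. T, Cdx2, Cdx4 and Nkx1-2 were at 4.30% to 9.19% of their 0 h level at 96 h, while Cdx1 was at 120%; dotted lines join points of 1 gene and are not a time course.

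Levels per kilobase of exon allow the genes to be set against each other. At 0 h T was at 35.9 CPM per kb, Cdx4 at 30.9, Cdx2 at 25.8, Nkx1-2 at 6.64 and Cdx1 at 2.51 CPM per kb. T thus exceeded 94.7% of the analysed genes that have a length, and Cdx1 exceeded 41.2% of them. At 96 h the order was T at 3.30, Cdx1 at 3.01, Cdx2 at 1.84, Cdx4 at 1.33 and Nkx1-2 at 0.434 CPM per kb, and T exceeded 48.1% of the genes. The make-up of the Cdx transcripts differed with it. Cdx1 made up 4.24% of the 3 Cdx levels per kb at 0 h, 5.08% with BMP4 at 5 h and 5.51% with BMP4 and FGF8. It made up 13.2% with BMP4 at 11 h, 41.8% with BMP4 and FGF4 and 48.7% at 96 h untreated. The summed Cdx level went from 59.2 CPM per kb at 0 h to 6.18 at 96 h.

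The first comparison sets cells after 96 h of culture without added factor against cells at 0 h. Of the 5 genes, 4 were at least 2-fold lower at 96 h, against 2.32% of all analysed genes, and none was at least 2-fold higher, against 3.75%. Cdx4 was lower by 23.3-fold (21.6 to 25.1), Nkx1-2 by 15.3-fold (13.8 to 17.0), Cdx2 by 14.0-fold (13.2 to 14.9) and T by 10.9-fold (10.4 to 11.4). The intervals of Cdx4 and T lay apart from those of the other 2, and those of Nkx1-2 and Cdx2 overlapped. Cdx1 had a ratio of 1.20 (1.11 to 1.30), within the 2-fold limit. In a bulk sample, fewer progenitor cells and less RNA per cell cannot be told apart.

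BMP4 for 5 h, set against 96 h untreated, had 4 of the 5 genes at least 2-fold higher, as had BMP4 with FGF8, against 2.22% and 2.39% of all genes. With BMP4 alone Cdx4 was 19.5-fold higher (18.1 to 21.1), Nkx1-2 13.1-fold (11.8 to 14.6), Cdx2 12.4-fold (11.6 to 13.1) and T 10.2-fold (9.71 to 10.6). With FGF8 added these ratios over 96 h were 19.0, 12.8, 12.9 and 9.58. Cdx1 had ratios of 0.866 (0.798 to 0.940) and 0.950 (0.878 to 1.03). All of these ratios share the 96 h library with the culture comparison, so the same low value enters each. Markers of other cells differed as well. Red blood cell genes summed to 12.2 CPM with BMP4 and 60.5 CPM with BMP4 and FGF8, against 959 CPM at 96 h. Endothelial genes summed to 6.43 and 6.81 CPM, against 82.5 CPM. A rise of these genes in cells of 96 h and a different cell make-up of the libraries cannot be told apart.

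Set against 0 h, the BMP4 5 h library had none of the 5 genes 2-fold different, and 0.47% of all genes were. T stood at 93.5% of its 0 h level, Cdx2 at 88.2%, Nkx1-2 at 85.8%, Cdx4 at 83.9% and Cdx1 at 104%. Few genes differed in this comparison, and the ratio of Cdx4 exceeded that of only 1.94% of all genes. For Nkx1-2 this share was 2.74%, for Cdx2 4.25%, for T 14.1% and for Cdx1 73.5%. Intervals of the ratios excluded 1 for T, Cdx2, Cdx4 and Nkx1-2 by counting error, but no replicate shows how far 2 like libraries differ.

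FGF8 added to BMP4 for 5 h left none of the 5 genes 2-fold different from BMP4 alone, where 0.21% of all genes were. The ratios were 0.943 for T (0.923 to 0.963), 1.10 for Cdx1 (1.01 to 1.19), 1.04 for Cdx2 (1.02 to 1.07), 0.974 for Cdx4 (0.949 to 1.00) and 0.978 for Nkx1-2 (0.936 to 1.02). For T, Cdx2, Cdx4 and Nkx1-2 this was the smallest difference among the 10 comparisons made. Whether FGF8 has no effect on them cannot be said from 1 library each. Placement also favours like values in these columns, and the Cdx rows with FGF8 were accepted only through the BMP4 5 h column.

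**Figure D3:**
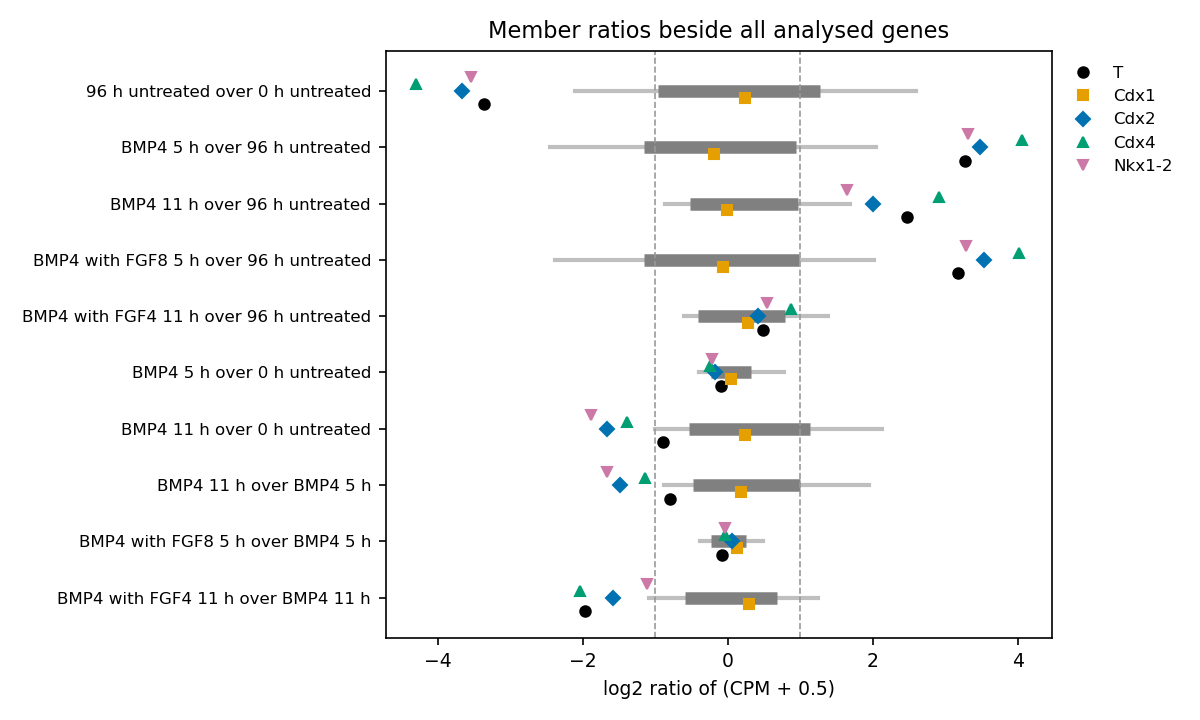
Log2 ratio of CPM + 0.5 for the 5 genes in 10 comparisons of 2 libraries, beside the central 95% (dark bar) and 99% (light bar) of all analysed genes, with dashed lines at 2-fold. T, Cdx2, Cdx4 and Nkx1-2 lie beyond the light bar on the lower side for 96 h over 0 h and on the higher side for both 5 h libraries over 96 h, and Cdx1 lies inside the dark bar in all 10 rows.

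In the BMP4 11 h library T, Cdx2, Cdx4 and Nkx1-2 were at unequal intermediate levels. Over 96 h untreated 4 of 5 were at least 2-fold higher, against 2.34% of all genes, with Cdx4 8.73-fold higher (8.06 to 9.47), T 5.81-fold (5.54 to 6.11), Cdx2 4.35-fold (4.06 to 4.66) and Nkx1-2 3.88-fold (3.44 to 4.38). Cdx1 had a ratio of 0.994 (0.913 to 1.08). As a share of the 0 h level, T stood at 53.5%, Cdx4 at 37.5%, Cdx2 at 31.0% and Nkx1-2 at 25.4%, so that 3 of the 5 genes were called lower than 0 h, against 0.499% of all genes. T was not among them, at a log2 ratio of -0.90. The ratio of T to Nkx1-2 per kb, which was 5.41 at 0 h, 5.90 with BMP4 at 5 h and 7.61 at 96 h, was 11.4 in the BMP4 11 h library.

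Compared directly, the BMP4 11 h library had 3 of the 5 genes at least 2-fold lower than BMP4 5 h, against 0.355% of all genes. Nkx1-2 was 3.38-fold lower (3.15 to 3.63), Cdx2 2.84-fold lower (2.73 to 2.96) and Cdx4 2.24-fold lower (2.16 to 2.32). T was at 1.75-fold lower (1.70 to 1.80) and Cdx1 at a ratio of 1.15 (1.05 to 1.26), both within the limit. From the smallest to the largest decrease, the order was T, Cdx4, Cdx2 and Nkx1-2 both over 0 h and over BMP4 5 h. These 2 comparisons share the 11 h library. With the Cdx2 and Cdx4 rows exchanged, these 2 genes change places in this order. Their log2 ratios are then -1.34 for Cdx2 and -1.71 for Cdx4 over 0 h, and -1.14 and -1.48 over BMP4 5 h.

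FGF4 added to BMP4 for 11 h went with lower levels. Relative to BMP4 11 h, 4 of the 5 genes were at least 2-fold lower, against 0.593% of all genes. Cdx4 was 4.41-fold lower (4.12 to 4.71), T 4.06-fold (3.87 to 4.25), Cdx2 3.16-fold (2.95 to 3.37) and Nkx1-2 2.41-fold (2.16 to 2.70), and Cdx1 had a ratio of 1.24 (1.14 to 1.35). The call of Nkx1-2 is at the limit, since its log2 ratio of -1.11 became -0.99 when scaled by total counts and -0.81 with 2 CPM added. Over 96 h untreated none of the 5 genes was called higher, against 1.28% of all genes, although Cdx4 was at a ratio of 1.98 (1.80 to 2.18), Nkx1-2 at 1.61 (1.40 to 1.84), T at 1.43 (1.35 to 1.52), Cdx2 at 1.38 (1.27 to 1.49) and Cdx1 at 1.23 (1.15 to 1.33). With the Cdx2 and Cdx4 rows exchanged, Cdx4 would reach a log2 ratio of 1.01 there. FGF8 was added for 5 h and FGF4 for 11 h, so the 2 ligands were not compared with each other.

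The wider network of axial progenitors was described by a list of 28 genes, of which 24 were placed and 21 passed the filter. This list too was chosen with earlier results of these data known. Fgf8, Fgf17, Sp8 and Pou5f1 were not securely placed, and Evx2, Eomes and Nodal were below the filter. At 96 h 15 of the 21 were at least 2-fold lower than at 0 h, against 2.32% of all genes, and none was higher, with a median log2 ratio of -1.80 where that of all genes was -0.0025. Lin28a, an RNA-binding protein of early embryonic cells, was at 240 and then 144 CPM, Epha5, an ephrin receptor, at 219 and then 205 CPM, and Greb1 at 194 and then 52.2 CPM. Sall4, a zinc finger factor of early progenitors, was at 122 and then 47.6 CPM, the ligand gene Wnt5a at 119 and then 27.1 CPM, and Lef1, a nuclear partner of beta-catenin, at 101 and then 42.4 CPM. Of these 6 genes, Lin28a and Epha5 were within the 2-fold limit and the others were called lower.

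With BMP4 at 5 h and with BMP4 and FGF8, 15 of the 21 were higher than at 96 h in each library (median log2 ratios 1.61 and 1.48), against 2.22% and 2.39% of all genes. With BMP4 at 11 h 10 were higher (median 0.93), against 2.34% of all genes, and with BMP4 and FGF4 2 were (median 0.23), against 1.28%. Relative to BMP4 alone, FGF8 left 0 of 21 genes called (median -0.03), against 0.21% of all genes, and FGF4 went with 6 lower (median -0.69), against 0.593%. Of the progenitor markers, Tbx6 and Msgn1 had the same order of libraries as T, and Dll1, Hes7 and Wnt3a differed from it among the 0 h and 5 h libraries. Tbx6, a T-box factor of paraxial mesoderm, was at 40.7 CPM at 0 h, 0.585 at 96 h, 37.2 with BMP4 at 5 h, 36.2 with BMP4 and FGF8, 20.4 with BMP4 at 11 h and 3.30 with BMP4 and FGF4. Msgn1, a bHLH factor of presomitic mesoderm, was at 23.2, 0.151, 18.2, 17.1, 6.45 and 0.818 CPM in the same libraries.

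**Figure D4:**
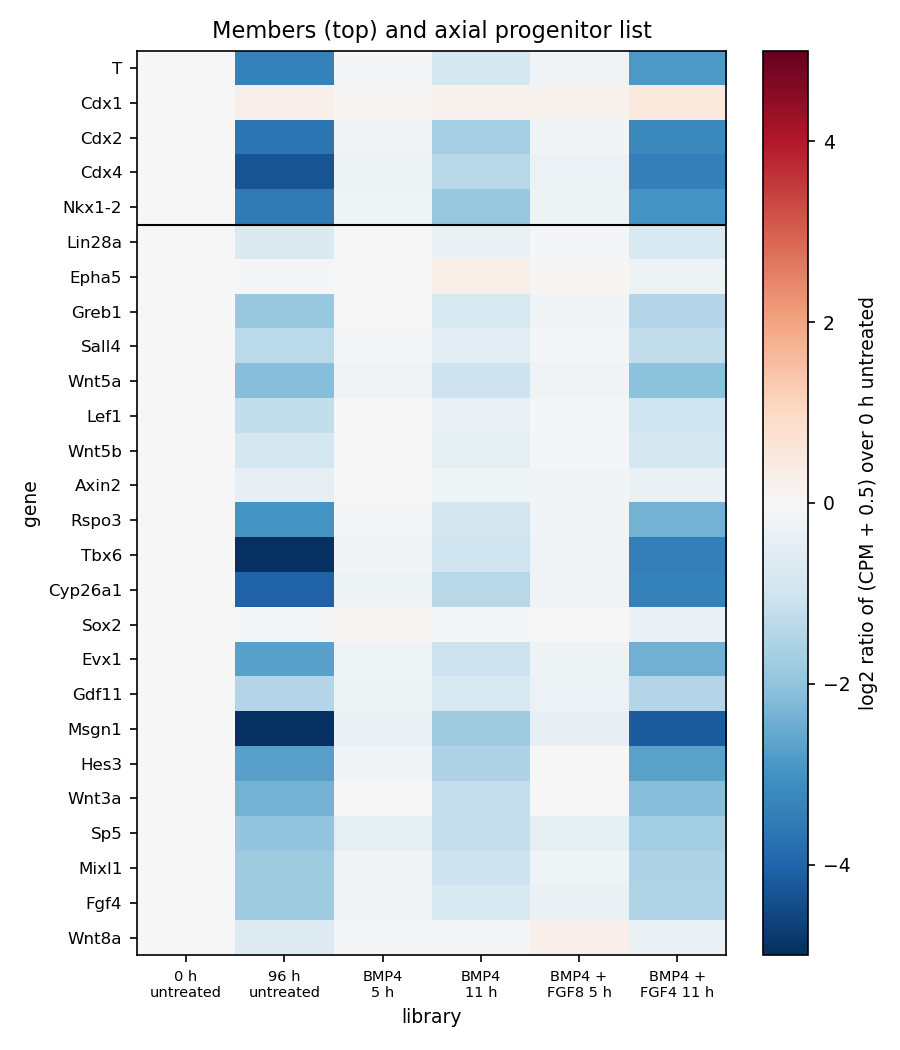
Log2 ratio of CPM + 0.5 over the 0 h library for the 5 genes (above the line) and the 21 analysed genes of the axial progenitor list, ordered by level at 0 h, in each of the 6 libraries. Blue is lower and red higher than 0 h; Cdx1, Sox2, Epha5 and Axin2 were among the genes within 2-fold of 0 h in all libraries.

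Marker lists of other cells also differed between these libraries, in the opposite direction. The 7 placed fibroblast genes of 8 listed summed to 73.2 CPM at 0 h, 145 and 124 CPM in the BMP4 and the BMP4 with FGF8 library of 5 h, 400 CPM with BMP4 at 11 h, 720 CPM at 96 h and 1095 CPM with BMP4 and FGF4. Of these 7 genes, 6 were at least 2-fold higher at 96 h than at 0 h. Thy1 was not, at 0.657 CPM at 0 h and 0.419 CPM at 96 h, and it was at 3.36 CPM with BMP4 at 5 h. The 5 placed red blood cell genes of 6 summed to 8.24 CPM at 0 h, 12.2 and 60.5 CPM at 5 h, 941 CPM with BMP4 at 11 h, 959 CPM at 96 h and 759 CPM with BMP4 and FGF4, so that the BMP4 11 h library was not intermediate for them. The 5 endothelial genes summed to 6.84 CPM at 0 h, 6.43 and 6.81 CPM at 5 h, 36.2 CPM with BMP4 at 11 h, 82.5 CPM at 96 h and 118 CPM with BMP4 and FGF4. No placed marker was at 0 counts at 0 h. The part of these other cells in the differences of T, Cdx2, Cdx4 and Nkx1-2 was not tested.

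Tissues that are known to share these genes were looked at in the same way. Notochord markers, 5 of 6 placed, summed to between 9.84 and 14.0 CPM in all 6 libraries. Between 0 h and 96 h they differed in direction: Noto was at 0.164 and then 2.21 CPM and was the 1 gene of the 5 called, Shh was at 5.07 and then 7.95 CPM, Chrd at 2.13 and then 0.986 CPM, Nog at 2.73 and then 1.86 CPM, and Foxj1 at 1.10 and then 1.02 CPM. The part of notochord cells in the T values was not tested. Hindgut and epithelial markers, 6 of 9 placed, summed to between 61.3 and 90.6 CPM, but 4 of the 6 were at least 2-fold lower at 96 h than at 0 h and 2 were higher. Cdh1, the epithelial cadherin gene, was at 19.7 CPM at 0 h, 9.60 at 96 h, 15.3 with BMP4 at 5 h, 22.5 with BMP4 and FGF8, 10.7 with BMP4 at 11 h and 11.5 with BMP4 and FGF4. The cytokeratin gene Krt18 went from 16.9 CPM at 0 h to 40.5 CPM at 96 h. The part of epithelial cells in the Cdx2 values was not tested. The 9 early neural markers summed to between 112 and 125 CPM, with 2 of them at least 2-fold higher at 96 h and none lower. Sox2, a factor shared by neural cells and axial progenitors, was at 34.7 CPM at 0 h, 32.3 CPM at 96 h and 27.2 to 36.3 CPM in the growth factor libraries.

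**Figure D5:**
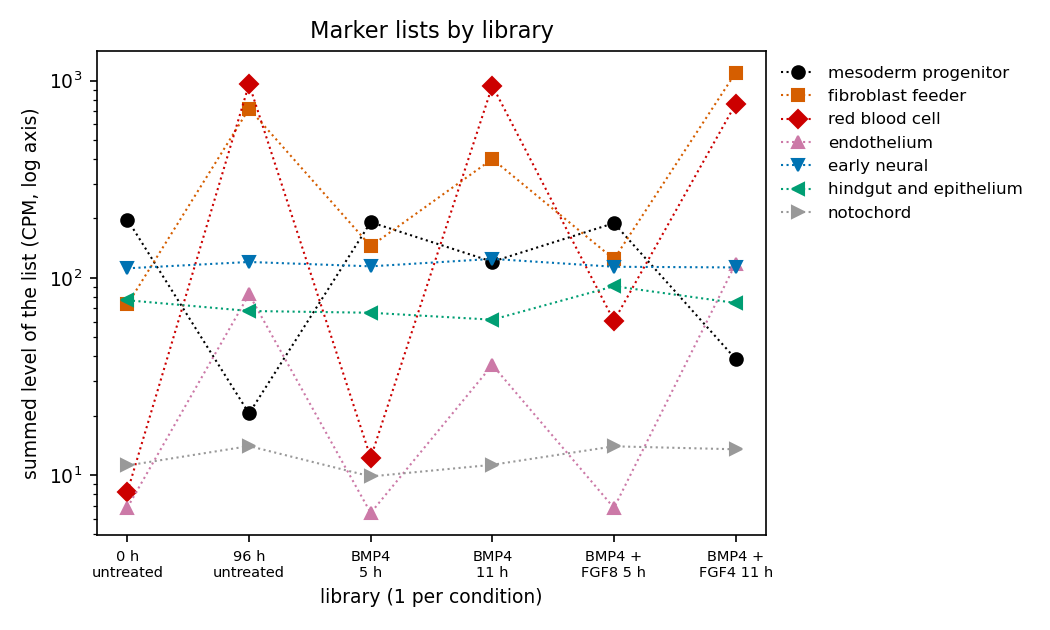
Summed CPM of 7 marker lists on a log axis in each of the 6 libraries. Mesoderm progenitor markers ran from 20.5 to 197 CPM and were low where fibroblast and endothelial sums were high, while the early neural sum ran from 112 to 125 CPM, the hindgut sum from 61.3 to 90.6 CPM and the notochord sum from 9.84 to 14.0 CPM.

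Genes with the pattern most like each of the 5 were sought among 9504 others with a mean of at least 5 CPM, by the root mean square distance of centred log2 levels over the 6 libraries. For T they were Hoxc10 (distance 0.12), Hoxc11 (0.16) and the Notch ligand gene Dll3 (0.16). For Cdx2 they were the potassium channel subunit gene Kcnab3 (0.12), Nkx1-2 (0.15) and Hoxd11 (0.19), and for Cdx4 the retinoic acid-degrading enzyme gene Cyp26a1 (0.10), the segmentation clock gene Hes7 (0.15) and Hoxd11 (0.16). For Nkx1-2 they were Cdx2 (0.15), Kcnab3 (0.24) and Hoxc11 (0.25). Cdx1, which varied little, was closest to Camta2 (0.04), Pik3r1 (0.04) and St3gal4 (0.04). These distances rest on 6 libraries that divide into high and low ones, so many genes with that division come close.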

How the data were processed

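For 6 libraries, 1 per condition, the authors deposited whole-number counts per gene, with no scaling. Tools listed in the submitters' processing notes, without their roles, are STAR 2.4.0e, cutadapt, HTSeq and DESeq, with build mm10; no source states how reads were counted. Per the labels' protocols, total RNA went through a strand-keeping kit.

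The 4 growth factor columns hold more values than there are names. Names were sorted without regard to case, and each column was aligned to them in order, scoring a row by its distance outside the range of both untreated columns (spread 0.25 on the log2 scale, 5 units charged for a skipped name or added row). A gene was kept where the next best row scored at least 5 units less, on the untreated columns or through the column of the same hours, and both alignments gave the same row. This left 17068 of 19342 names, with 95.9% to 96.0% of the counts. In simulated columns 95.0% to 97.3% of 13840 expressed genes were kept, and at least 99.9% of these were right. Simulated levels lay between those of 0 h and 96 h, apart from noise and a set of changed genes. They were kept by the margin on the untreated columns alone, so the route through the other column was not checked. The route through the other column was chosen after seeing the margins of the Cdx genes.

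Counts were scaled by TMM (edgeR 4.0.16, R 4.3.3) with the column totals as library sizes. Analysed were the 13821 genes that reached 1 CPM in some library, and 0.5 CPM was added before log2 ratios, which understates changes of weak genes. Exact (Clopper-Pearson) 95% intervals of ratios and exact Poisson intervals of levels came from scipy 1.17.1. In 2 simulated libraries of 96 h over 0 h, 98% of genes raised and 92% of genes lowered 4-fold were called. No test between conditions was made, since there are no replicates. Exon lengths came from GENCODE vM21. Named genes are the 5 members, the 3 genes nearest to each, and up to 6 per list by level at 0 h, without predicted, RIKEN, small RNA and pseudogene symbols; the marker genes named beyond these were chosen after their values were seen. The members and lists were chosen with earlier results of these data known.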

Additional observations from a re-analysis of the deposited data

How the results depend on the processing

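DESeq2 size factors (version 1.42.0), the 5 CPM filter and no filter left all 50 single ratios of the 5 genes on their side of the 2-fold limit, and no ratio past the limit changed sign under any of the 9 alternatives. Scaling by total counts and adding 2 CPM each ended 1 call, that of Nkx1-2 for BMP4 with FGF4 over BMP4 11 h. Under other placements the ratios of the genes still placed moved by at most 0.0050, but fewer genes were placed, which lowers counts. These placements score rows in the same way, so the small shift does not show that the rows are right. Placement on the 96 h column alone left 3 of the 5 genes (Cdx1, T and Nkx1-2): 2 were called in the comparisons that had 4 above and 1 in those that had 3. The axial list then had 11 genes, with 6 called at 96 h over 0 h and for each library of 5 h over 96 h, 3 for BMP4 11 h over 96 h and over 0 h, 2 for FGF4 added and 1 for BMP4 with FGF4 over 96 h and for 11 h over 5 h. Placement on the 0 h column alone kept all 5 genes and 17 of the list, with 6 called for BMP4 11 h over 96 h, 3 for FGF4 added, 2 for 11 h over 5 h and 1 for BMP4 with FGF4 over 96 h. With 2 CPM added the list had 5 called for BMP4 11 h over 0 h and 1 for BMP4 with FGF4 over 96 h. 2 alternatives were chosen after seeing the data. Without the route through the column of the same hours, T and Nkx1-2 remained of the 5 genes, with 2 called (1 where 3 had been), and the list had 2 called for 11 h over 5 h. With the Cdx2 and Cdx4 rows exchanged, these genes changed places in the order at 11 h, and 1 gene was called for BMP4 with FGF4 over 96 h. Pearson correlation in place of distance named other neighbours. Depth does not limit these ratios, since the lowest count of the 5 genes was 385; the absence of replicates does.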

Other observations

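The T-box family to which T belongs did not move as one. Of 16 other members, 11 passed the filter, and at 96 h 1 was at least 2-fold lower than at 0 h and 3 were higher, against 2.32% and 3.75% of all genes. The lower one was Tbx6, and the higher ones, named after their values were seen, were Tbx20, a heart factor (1.12 to 14.7 CPM), Tbx5, a heart and forelimb factor (2.27 to 11.04 CPM), and Tbx15 (0.347 to 1.27 CPM). Mga was at 85.4 and then 74.5 CPM, Tbx3 at 18.4 and then 16.9 CPM, Tbx4 at 11.8 and then 14.7 CPM and Tbx2 at 3.69 and then 5.19 CPM, all within the limit. Tbx18 was at 4.53 and then 9.54 CPM, just under the limit at a log2 ratio of 0.998. With BMP4 at 11 h Tbx20 was at 6.32 CPM and with BMP4 and FGF4 at 17.0 CPM. Nkx1-1, the closest relative of Nkx1-2, and the ParaHox gene Pdx1 were at no more than 0.0837 and 0.112 CPM in any library, and Gsx1 and Gsx2 were not securely placed.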
